A study of Homo sapiens with 6 samples.

Results

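The proteasome genes of A549 cells, 42 of the 60624 gene rows in the deposited table, were followed after knockdown of CEP20, a protein of centrioles and centriolar satellites. The members were taken by gene symbol and comprise the subunits of the 20S core, its inducible immunoproteasome subunits, the base and lid of the 19S cap, the activators of the core and 4 assembly chaperones. All 42 symbols matched a single row. The proteasome is the barrel-shaped protease that degrades proteins tagged with ubiquitin. Its 20S core is built of outer rings of alpha subunits, which gate the entrance, and inner rings of beta subunits, of which 3 kinds carry the proteolytic sites. The 19S cap binds ubiquitin chains, removes them and unfolds the substrate with a ring of ATPases, while the 11S activators PA28 and the activator PA200 open the core without ubiquitin. After interferon, 3 inducible beta subunits replace the constitutive catalytic ones, which changes the peptides available to MHC class I.

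A549 is an established human line of lung adenocarcinoma, a form of non-small cell lung cancer. Poly(A) RNA was sequenced from 3 siCEP20 samples, transfected with small interfering RNA against CEP20, and 3 siCTR samples, transfected with a control small interfering RNA, for 3 days by the labels. Both groups carry the transfection itself, a single cell line was used, which of the study's 2 small interfering RNAs against CEP20 these samples received is not stated in the sources used here, and the labels do not say that the replicates were separate cultures, so p-values measure the spread between these samples. CEP20 was at 29.2, 30.5 and 35.1 TPM under siCTR and 16.2, 15.3 and 17.3 TPM under siCEP20 (log2 fold change -0.92, standard error 0.0915, adjusted p = 2.05e-04), so that all siCEP20 libraries lay below all siCTR libraries.

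Expression was deposited as TPM (length-normalised transcript abundance), which is divided by transcript length and adds up to the same total in each library, so sequencing depth is unknown and levels can be set side by side between genes. TPM is a share of all RNA in the library, and a change in the number of expressing cells cannot be told apart from a change in RNA per cell. Of the A549 and epithelial markers, KRT8, KRT18, AKR1B10 and ALDH1A1 were at 874 TPM or more in every library, while EPCAM was between 0.834 and 3.85 TPM. AKR1C1 was between 178 and 237, KRT19 between 69.0 and 89.8, CDH1 between 11.1 and 24.1 and FGB between 1.81 and 13.2 TPM. Of 8 markers of leukocytes, endothelium and fibroblasts, 7 were under 0.2 TPM in every library, with CD3E and DCN among those at 0, and only COL1A1 was expressed (from 5.27 to 5.90 TPM in siCTR and from 17.5 to 19.6 TPM in siCEP20 libraries). EPCAM, CDH1, FGB and COL1A1 were called higher in siCEP20 samples, and their part in the results was not tested. All fold changes below are siCEP20 against siCTR on the log2(TPM + 1) scale, fitted with limma (SE, its standard error) on the 14778 genes that averaged 1 TPM or more, with Benjamini-Hochberg adjustment over all of them. A gene is called at an adjusted p under 0.05 together with a fold change over 1.5 or under 0.67. Over all tested genes the median fold change was 0.13 in log2, and median-of-ratios scaling took it to 1e-04, so list medians are also given relative to it.

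The proteasome genes moved in both directions. At an adjusted p under 0.05, 12 of 14 constitutive core subunits, all 3 inducible catalytic subunits, both PA28 alpha and beta and the assembly factor POMP were lower in siCEP20 samples. In the cap, 5 of 8 lid genes were higher and 1 was lower, while 4 of 9 base genes were lower and 0 higher. All 42 members passed the filter on low TPM. Of them, 24 were lower, 8 were higher and 10 did not pass, where 13.2% of all tested genes were lower and 30.2% higher at the same threshold. With the fold change required as well, 10 members were called lower and 0 higher by limma (at an unadjusted p under 0.05 alone, 26 were lower and 9 higher), against 4.61% of all tested genes called lower and 11.2% called higher. For 26 members every siCEP20 value lay below every siCTR value, and for 10 every siCEP20 value lay above, where the shares among all tested genes were 17.0% and 38.4%. The members' median log2 fold change was -0.29, or -0.42 relative to all tested genes. Their range ran from -1.17 for PSMB10 to 0.39 for PSMD6.

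The summed TPM of the 42 genes was 8605, 8602 and 8621 under siCTR and 7115, 7548 and 7228 under siCEP20. This corresponded to 0.861% of all TPM in siCTR and 0.730% in siCEP20 samples, with every siCEP20 library below every siCTR library. As a share of the siCTR mean, the sum was 79.5% for the alpha ring, 74.3% for the constitutive beta ring, 54.0% for the immunoproteasome subunits, 83.9% for the base ATPases, 87.4% for the other base subunits and 118% for the lid. These sums are descriptions without a test, since members are not replicates. With each library left out in turn, the lid stayed between 116% and 120.0% and the immunoproteasome subunits between 51.8% and 57.5%. With median-of-ratios scaling the sum of the lid was 106% of the siCTR mean, and that of both constitutive 20S rings 68.8%. After correction for transcript length and GC content these sums were 120.4% and 83.6%.

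**Figure D1:**
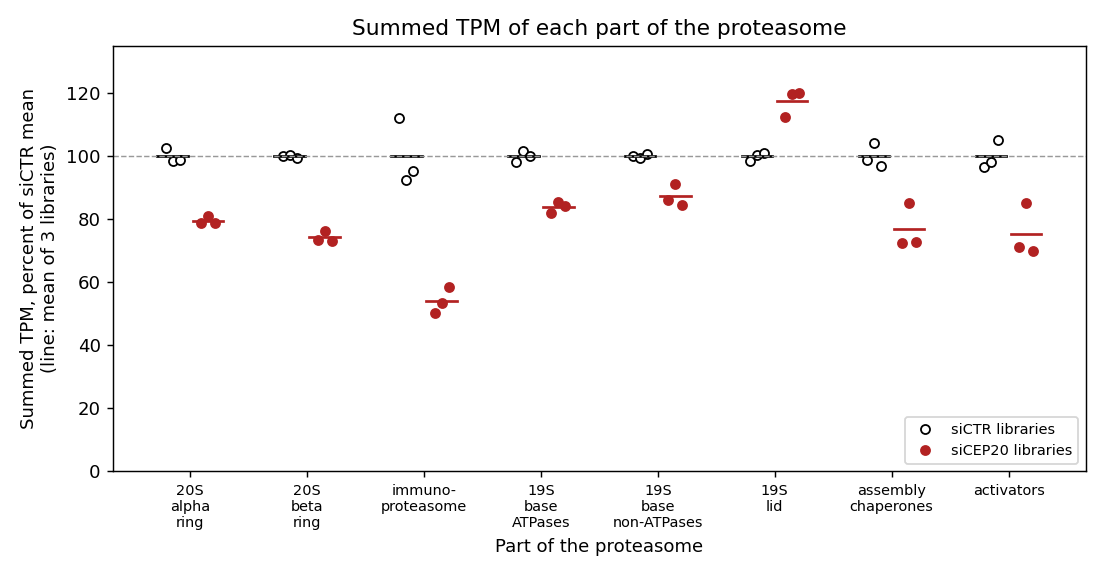
Summed TPM of each part of the proteasome (x axis) as a percent of the siCTR mean (y axis, from 0), with 1 point per library (white, siCTR; red, siCEP20) and a line at the mean of 3 libraries. The immunoproteasome subunits averaged 54.0% of the siCTR mean and the lid 118%, and in all 8 parts the siCEP20 points lie apart from the siCTR points.

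Promoter sequences are shown for 7 members, chosen because they include the 5 classical interferon-inducible genes (PSMB8, PSMB9, PSMB10, PSME1 and PSME2), of which all were lower in siCEP20 samples, and a core and a lid gene that moved in opposite directions (PSMB3 and PSMD3). The stretches come from RefSeq (GRCh38.p14), run 5′ to 3′ on the strand of the gene and end at or up to 16 bases past an annotated start (PSMB8 has more than 1). Capitals mark matches, on either strand, to the core of the interferon-stimulated response element (GAAA, 2 bases of any kind and GAAA again), to the GAS element bound by STAT factors (TTCNNNGAA) and to the core of the antioxidant response element (TGACNNNGC), which is bound by NRF1 and NRF2 and is known from many proteasome genes.

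PSMB8: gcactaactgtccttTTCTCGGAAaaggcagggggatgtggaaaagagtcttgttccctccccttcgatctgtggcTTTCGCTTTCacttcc
PSMB9: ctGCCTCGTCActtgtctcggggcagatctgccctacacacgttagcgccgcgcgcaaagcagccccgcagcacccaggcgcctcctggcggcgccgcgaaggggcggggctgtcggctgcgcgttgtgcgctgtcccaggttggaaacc
PSMB10: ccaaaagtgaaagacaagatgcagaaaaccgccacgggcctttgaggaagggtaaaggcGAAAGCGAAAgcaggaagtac
PSME1: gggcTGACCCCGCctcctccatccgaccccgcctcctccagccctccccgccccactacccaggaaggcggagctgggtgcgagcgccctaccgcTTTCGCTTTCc
PSME2: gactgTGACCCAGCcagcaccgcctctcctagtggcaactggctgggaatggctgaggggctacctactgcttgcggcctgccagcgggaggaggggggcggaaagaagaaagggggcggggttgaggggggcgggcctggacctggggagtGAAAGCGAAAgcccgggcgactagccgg
PSMB3: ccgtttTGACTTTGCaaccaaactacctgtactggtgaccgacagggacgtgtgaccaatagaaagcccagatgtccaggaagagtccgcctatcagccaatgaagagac
PSMD3: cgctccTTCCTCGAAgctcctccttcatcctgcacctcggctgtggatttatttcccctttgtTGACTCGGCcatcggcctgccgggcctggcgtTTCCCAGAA

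The stretches lie at chr6:32844036-32844127, minus strand (PSMB8), chr6:32854042-32854191, plus strand (PSMB9), chr16:67936851-67936930, minus strand (PSMB10), chr14:24136104-24136209, plus strand (PSME1), chr14:24146611-24146790, minus strand (PSME2), chr17:38752631-38752740, plus strand (PSMB3) and chr17:39980707-39980810, plus strand (PSMD3). PSMB10 and PSME2 hold the same 10 letters, GAAAGCGAAA, within 30 bases before the start, and PSMB8 and PSME1 hold the reverse complement, TTTCGCTTTC, at the start and just after it. The window of PSMB9 has no match to this core. RefSeq windows from 250 bases before to 50 after a start were at hand for 37 members, and not for PSMA7, PSMB1, PSMB6, PSMB7 and PSMD4. The interferon-stimulated core was in a window of 6 of the 37 members (16.2%), namely PSMA4, PSMB4, PSMB8, PSMB10, PSME1 and PSME2, against 4.38% of all genes with a window. The antioxidant core was in 13 of 37 (35.1%, against 16.1% of all genes), the GAS element in 7 (18.9% against 9.38%), the ETS core CCGGAAG in 13 (35.1% against 12.2%), the CCAAT box in 18 (48.6% against 39.7%) and the TATA box TATAAA in 4 (10.8% against 14%). Members with the antioxidant core were found on both sides of the change, such as PSME2 (log2 fold change -0.92) and PSMB3 (-0.48) against PSMD3 (0.36) and PSME4 (0.28). The ETS core was in PSMD6, PSMD7, PSMD8, PSMD12, PSMD13 and PSMD14 of the lid, and in PSMA6 alone of the constitutive core subunits with a window. Members with it included the lower POMP (-0.67) and PSMA6 (-0.38) and the higher PSMD6 (0.39) and PSMD8 (0.37). PSMD3 and PSMD11, which were higher, had no match to it. Whether a match goes with the direction of change was not tested. A match is a description of letters and says nothing about binding in these cells.

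In the alpha ring, 6 of 7 subunits were lower at an adjusted p under 0.05 and 1 was higher, against 13.2% and 30.2% of all tested genes. The alpha subunits carry no protease site, and their N-terminal tails close the pore of the barrel until an activator docks. PSMA7 (ENSG00000101182, chr20:62136733-62143440) was at 464, 460.4 and 446 TPM under siCTR and 287, 292 and 294 TPM under siCEP20 (log2 fold change -0.65, SE 0.0451, adjusted p = 5.22e-05). Its lowest siCTR value was far above its highest siCEP20 value. PSMA2 was at 138, 140.1 and 129.9 TPM under siCTR and 89.3, 87.8 and 89.9 TPM under siCEP20 (log2 fold change -0.61, adjusted p = 1.37e-04). PSMA5, the least abundant alpha subunit, was at 50.9, 50.5 and 48.8 TPM under siCTR and 32.8, 34.6 and 32.1 TPM under siCEP20 (log2 fold change -0.58, adjusted p = 3.02e-04). These 3 were called lower, and PSMA5 lay just past the fold change threshold. The call of PSMA5 was lost when siCTR replicate 1 or 2, or siCEP20 replicate 1 or 3, was left out alone (log2 fold changes from -0.57 to -0.56). PSMA6, the most abundant, fell less, with 544, 483 and 488 TPM under siCTR and 397, 378 and 390.0 TPM under siCEP20 (mean 505 ± 33.7 against 388 ± 9.45 TPM, SD, n = 3 each, log2 fold change -0.38, adjusted p = 0.00151). PSMA1 (-0.31) and PSMA3 (-0.41) also passed the adjusted p without the fold change. PSMA4 went the other way, with 352, 317 and 339 TPM under siCTR and 363, 405 and 381 TPM under siCEP20. Its log2 fold change of 0.19 had an adjusted p of 0.0387. It did not pass when siCTR replicate 2 or 3, or siCEP20 replicate 2 or 3, was left out alone (adjusted p from 0.0707 to 0.128). The alpha subunits stand in equal numbers in the core, yet their mean TPM over all libraries ran from 41.6 for PSMA5 to 447 for PSMA6.

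**Figure D2:**
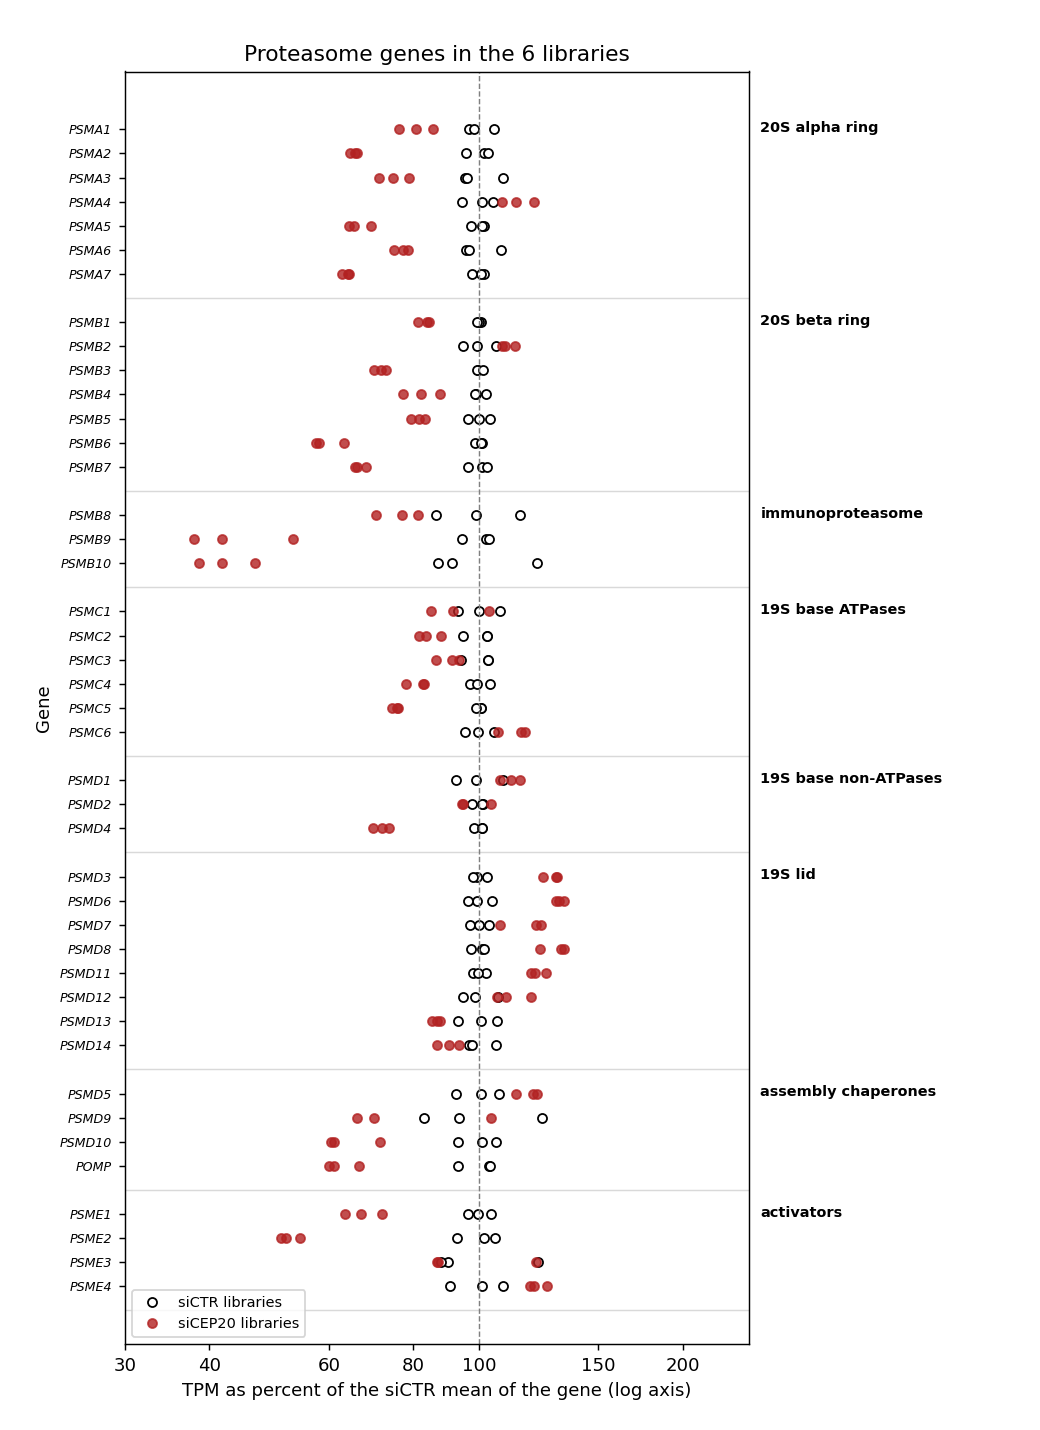
TPM of each of the 42 proteasome genes in each library as a percent of that gene's siCTR mean (log axis), with white points for siCTR and red points for siCEP20 libraries, grouped by place in the complex. Red points lie to the left of the white ones in most core genes, farthest for PSMB9 and PSMB10, and to the right in PSMD3, PSMD6, PSMD7, PSMD8 and PSMD11 of the lid.

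In the constitutive beta ring, 6 of 7 subunits were lower at an adjusted p under 0.05 and 0 higher, against 13.2% and 30.2% of all tested genes. After correction for transcript length and GC content, 3 of the 7 were lower and 0 were called. The protease sites sit on PSMB5 (chymotrypsin-like), PSMB6 (caspase-like) and PSMB7 (trypsin-like), and the other 4 beta subunits are structural. PSMB6 (ENSG00000142507, chr17:4796144-4798502) was at 409, 399.9 and 408 TPM under siCTR and 235, 256 and 233 TPM under siCEP20, the largest fall in the ring (log2 fold change -0.75, SE 0.0537, adjusted p = 5.97e-05). PSMB7 was at 440.4, 447 and 419 TPM under siCTR and 288, 285 and 296 TPM under siCEP20 (log2 fold change -0.59, adjusted p = 9.43e-05). Both were called lower, and the groups were far apart in both. The call of PSMB7 was lost without siCTR replicate 2 or siCEP20 replicate 2 (log2 fold change -0.57). PSMB5, the third catalytic subunit, fell less, with 421, 437 and 405 TPM under siCTR and 334, 351 and 344 TPM under siCEP20 (log2 fold change -0.29, adjusted p = 0.00226). Among the structural subunits, PSMB3 had the highest mean TPM over all libraries and fell, with 506, 504 and 515 TPM under siCTR and 364, 371 and 356 TPM under siCEP20 (mean 508 ± 5.76 against 363 ± 7.62 TPM, SD, n = 3 each, log2 fold change -0.48, adjusted p = 1.48e-04). PSMB1 (-0.27) and PSMB4 (-0.28) had smaller decreases that passed the adjusted p. PSMB2 had 61.4, 58.5 and 65.4 TPM under siCTR and 66.8, 69.8 and 67.4 TPM under siCEP20, and its log2 fold change of 0.14 did not pass (adjusted p = 0.115) and was -0.01 with median-of-ratios scaling.

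PSMB10 and PSMB9, both inducible subunits, had the largest decreases among the members. PSMB8, PSMB9 and PSMB10 take the places of PSMB5, PSMB6 and PSMB7 in the immunoproteasome, and their levels here were low, with no mean over all libraries above 23.8 TPM. PSMB10 (ENSG00000205220, chr16:67934506-67936864) was at 40.7, 30.4 and 29.1 TPM under siCTR and 13.9, 12.9 and 15.6 TPM under siCEP20 (log2 fold change -1.17, SE 0.133, adjusted p = 3.60e-04). PSMB9 (ENSG00000240065, chr6:32844136-32859851) was at 20.7, 22.5 and 22.7 TPM under siCTR and 8.34, 9.18 and 11.7 TPM under siCEP20 (log2 fold change -1.11, SE 0.120, adjusted p = 2.95e-04). The siCEP20 mean was 42.3% of the siCTR mean for PSMB10 and 44.3% for PSMB9, and both calls held in all 6 fits with a library left out. PSMB8 was at 31.0, 23.3 and 26.7 TPM under siCTR and 19.02, 21.9 and 20.8 TPM under siCEP20. Its groups were apart by little, and its log2 fold change of -0.37 (adjusted p = 0.0268) was not called. PSMB8 did not pass the adjusted p when siCTR replicate 1 or 3, or siCEP20 replicate 1 or 3, was left out alone (adjusted p from 0.0562 to 0.0869). PSMB8 and PSMB9 are neighbours on chromosome 6 and overlap on opposite strands. PSMB10 shares 374 exon bases with a gene without a symbol on the same strand (ENSG00000261884), which was at 18.5, 15.7 and 14.2 TPM in siCTR and 4.82, 8.56 and 7.32 TPM in siCEP20 libraries, so reads could be split between them.

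Set against the constitutive catalytic subunits, the inducible ones together had 7.27, 5.93 and 6.37% of their TPM in the siCTR libraries and 4.82, 4.93 and 5.51% under siCEP20. The constitutive forms thus made up most of the catalytic transcripts in every library, and the siCEP20 shares lay below all siCTR shares. By pair, PSMB10 over PSMB7 went from 9.24, 6.80 and 6.95% to 4.84, 4.53 and 5.26%. PSMB9 over PSMB6 went from 5.07, 5.62 and 5.57% to 3.55, 3.58 and 5.02%, where the highest siCEP20 value came close to the lowest siCTR value. PSMB8 over PSMB5 overlapped between groups, with 7.36, 5.34 and 6.58% against 5.69, 6.24 and 6.05%. These ratios are given without a test, and an exact permutation test of 3 samples against 3 cannot go below p = 0.1.

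**Figure D3:**
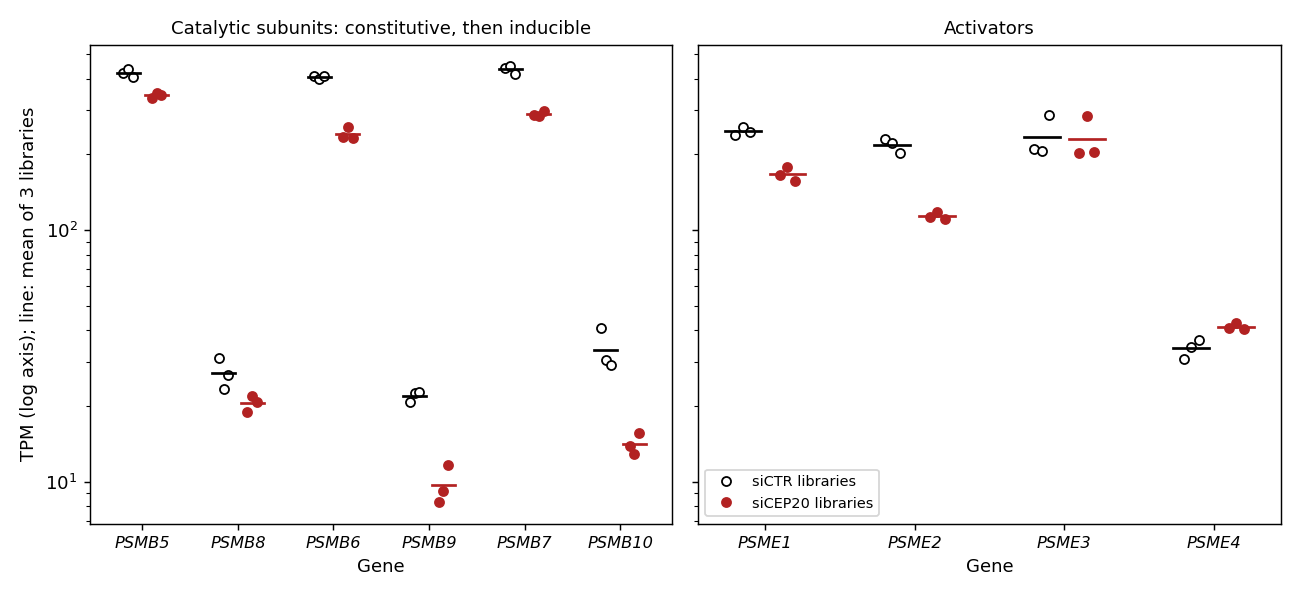
TPM (log axis) of the 3 constitutive catalytic subunits, each beside its inducible counterpart (left), and of the 4 activator genes (right), with 1 point per library and a line at the mean of 3 libraries (white and black, siCTR; red, siCEP20). PSMB9, PSMB10 and PSME2 show wide gaps between the groups, while the points of PSME3 overlap.

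Of the activators, the PA28 pair was lower. PSME1 (PA28 alpha) and PSME2 (PA28 beta) form the interferon-inducible ring that docks on the core, PSME3 (PA28 gamma) forms a nuclear ring, and PSME4 is PA200, known from chromatin and sperm. PSME2 (ENSG00000100911, chr14:24143362-24147570) was at 229, 221 and 202 TPM under siCTR and 113, 118 and 111 TPM under siCEP20 (log2 fold change -0.92, SE 0.0632, adjusted p = 5.22e-05), and was called lower. PSME1 was at 238, 258 and 246 TPM under siCTR and 166, 178 and 157 TPM under siCEP20. Its log2 fold change of -0.57 (adjusted p = 3.29e-04) stood just short of the fold change threshold, and it was called without siCTR replicate 1 or siCEP20 replicate 2 (log2 fold changes from -0.61 to -0.59). The TPM of PSME2 over that of PSME1 was 96.2, 85.7 and 82.0% under siCTR and 68.0, 66.4 and 70.7% under siCEP20, so the beta form was lower than the alpha form in every library and farther below it after knockdown. PSME3 was at 211, 206 and 286 TPM under siCTR and 203, 284 and 204 TPM under siCEP20. In each group 1 library stood high and the others were close together, and the log2 fold change of -0.02 (adjusted p = 0.915) turned positive without siCTR replicate 3 (0.13), siCEP20 replicate 1 (0.06) or siCEP20 replicate 3 (0.05). PSME3 over the sum of PSME1 and PSME2 was 45.1, 43.0 and 63.9% under siCTR and 72.9, 95.9 and 76.1% under siCEP20, with the groups apart. PSME4 was higher, with 30.7, 34.3 and 36.8 TPM under siCTR and 40.8, 42.7 and 40.3 TPM under siCEP20 (log2 fold change 0.28, adjusted p = 0.0227). It did not pass when siCTR replicate 1 or 2, or siCEP20 replicate 1 or 2, was left out alone (adjusted p from 0.0508 to 0.0750). PSME1 overlaps EMC9, and PSME2 overlaps RNF31 and a gene without a symbol, all on the opposite strand and with no shared bases between the exons of the canonical transcripts. EMC9 was lower too, at 93.2, 103 and 103 TPM in siCTR and 67.3, 68.8 and 67.4 TPM in siCEP20 libraries.

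The base of the cap was lower in part. Its 6 ATPases (PSMC1 to PSMC6) form the unfolding ring, PSMD1 and PSMD2 are the large scaffold subunits, and PSMD4 is a ubiquitin receptor. Of these 9 genes, 4 passed an adjusted p under 0.05 as lower and 0 as higher, and 0 were called. The shares over all tested genes were 13.2% lower and 30.2% higher. PSMD4 was at 302, 294 and 301 TPM under siCTR and 215, 220.2 and 208 TPM under siCEP20 (log2 fold change -0.48, SE 0.0481, adjusted p = 2.13e-04). PSMC5 was at 276, 275 and 271 TPM under siCTR and 204, 207 and 208 TPM under siCEP20 (log2 fold change -0.41, adjusted p = 3.40e-04). PSMC4, the most abundant ATPase, was at 399.5, 428 and 409.8 TPM under siCTR and 322, 342 and 341 TPM under siCEP20 (log2 fold change -0.30, adjusted p = 0.00232). PSMC2 (-0.24, adjusted p = 0.0160) was the fourth that passed, but not without siCEP20 replicate 1 (adjusted p = 0.0549). PSMC1 (-0.10), PSMC3 (-0.14) and PSMC6 (0.17) did not pass, with adjusted p between 0.0747 and 0.381, though PSMC3 passed without siCTR replicate 1 (adjusted p = 0.0411). In PSMD4, PSMC5 and PSMC4 the groups did not overlap. The scaffold gene PSMD1 was at 82.6, 97.1 and 88.5 TPM under siCTR and 99.7, 103 and 95.9 TPM under siCEP20, and its groups overlapped (log2 fold change 0.15, adjusted p = 0.116). PSMD2 stood at -0.04 (adjusted p = 0.644). PSMC1 shares 3654 exon bases with NRDE2 and PSMC5 shares 84 with FTSJ3, each on the opposite strand.

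In the lid of the cap, most of the genes that passed were higher. The lid removes the ubiquitin chain through the metalloprotease PSMD14, held by PSMD7, and its other members are mainly scaffold subunits. Of 8 lid genes, 5 passed an adjusted p under 0.05 as higher and 1 as lower, and 0 reached the fold change for a call. Over all tested genes 30.2% were higher and 13.2% lower at that threshold, so higher genes were also the more frequent there. The lid's median log2 fold change was 0.26, or 0.12 relative to all tested genes, and it was 0.11 with median-of-ratios scaling, 0.21 with quantile normalization and 0.24 once transcript length and GC content were corrected for. With median-of-ratios scaling 3 lid genes passed as higher (PSMD3, PSMD6 and PSMD8) and 2 as lower (PSMD13 and PSMD14). The shares over all tested genes were then 20.1% higher and 21.6% lower. PSMD8 (ENSG00000099341, chr19:38374563-38383850) was at 476, 495 and 499 TPM under siCTR and 602, 647 and 654 TPM under siCEP20 (log2 fold change 0.37, SE 0.0512, adjusted p = 8.66e-04). Its mean TPM over all libraries was the highest of all 42 members, while under siCTR alone PSMB3 and PSMA6 were higher. PSMD3 was at 199.7, 197 and 207 TPM under siCTR and 250.1, 261 and 262 TPM under siCEP20 (log2 fold change 0.36, adjusted p = 8.91e-04). PSMD6 was at 72.2, 69.9 and 76.1 TPM under siCTR and 94.5, 97.0 and 95.3 TPM under siCEP20 (log2 fold change 0.39, adjusted p = 0.00113). In these 3 genes no siCEP20 value reached down to a siCTR value, and they passed the adjusted p in the positive direction in all 6 fits with a library left out and in the 8 other alternative fits. PSMD11 (0.28) passed as well and was lost only with median-of-ratios scaling (adjusted p = 0.0667). PSMD7 (0.23, adjusted p = 0.0237) passed as well, but not when siCTR replicate 1 or 3, or siCEP20 replicate 2 or 3, was left out alone (adjusted p from 0.0532 to 0.0798). PSMD12 (0.16, adjusted p = 0.124) did not pass. The deubiquitinase gene PSMD14 was at 141, 143 and 155 TPM under siCTR and 127, 137 and 132 TPM under siCEP20 and did not pass either (log2 fold change -0.15, adjusted p = 0.0768). PSMD13 was lower (-0.21, adjusted p = 0.0267). It did not pass when siCTR replicate 1 or 2, or siCEP20 replicate 1, 2 or 3, was left out alone (adjusted p from 0.0594 to 0.0747).

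Per subunit, the mean TPM of the lid was 55.7, 57.6 and 58.3% of that of the constitutive 20S subunits in the siCTR libraries and 85.1, 87.5 and 90.9% under siCEP20. For the base, the same ratio was 59.7, 61.9 and 61.7% and 67.5, 68.2 and 68.2%. These ratios within a library do not depend on a common scaling factor, and for lid and base alike every siCEP20 library lay above every siCTR library. They are not corrected for transcript length, which went with the change across the members (Spearman's rho 0.671). For the whole cap, the summed TPM in siCEP20 samples was 99.9% of that in siCTR samples, against 76.5% for both constitutive 20S rings. With median-of-ratios scaling the cap was at 89.9%.

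**Figure D4:**
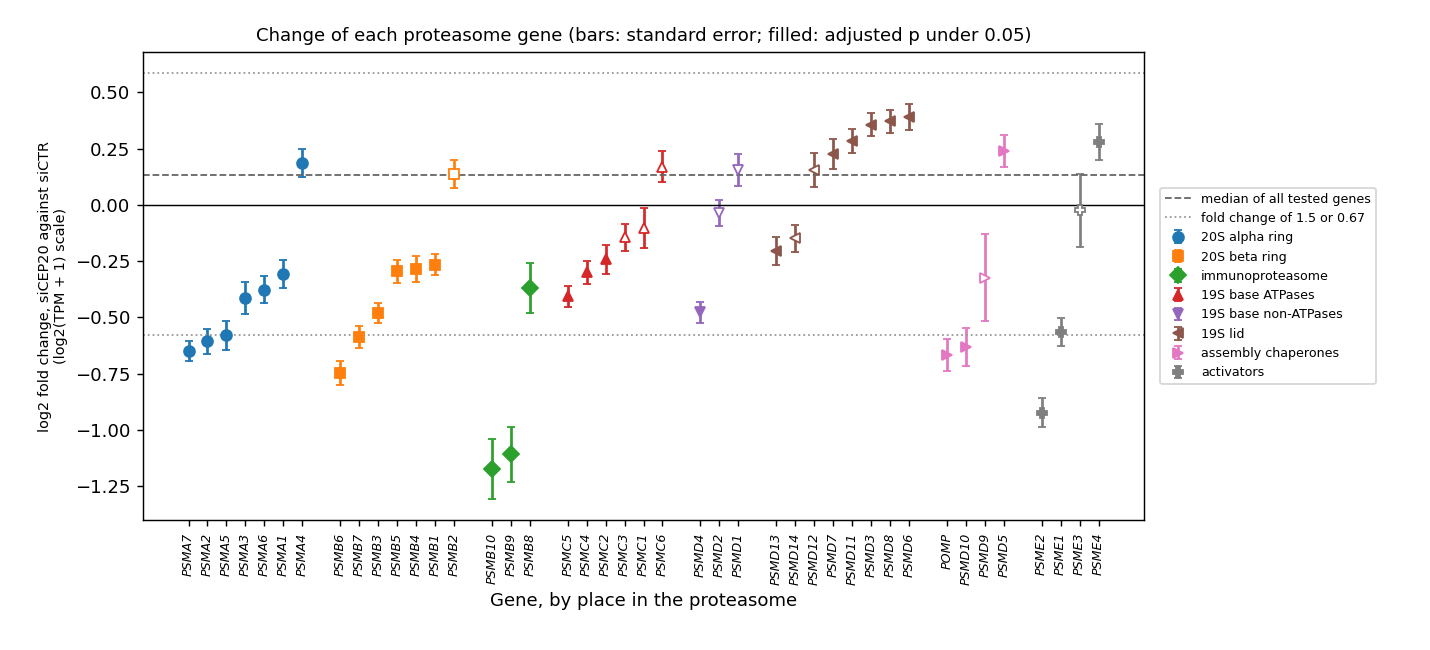
log2 fold change of each proteasome gene (y axis, log2(TPM + 1) scale, siCEP20 against siCTR, with standard errors), ordered within each part of the complex (x axis). Filled symbols passed an adjusted p under 0.05. The dashed line is the median of all tested genes (0.13) and the dotted lines the fold changes of 1.5 and 0.67, below which 10 filled symbols lie.

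Among the chaperones that build the complex, POMP and PSMD10 were called lower. POMP, the maturation factor of the core that is consumed once the beta subunits are processed, was at 84.3, 75.9 and 84.7 TPM under siCTR and 49.9, 54.3 and 49.0 TPM under siCEP20 (log2 fold change -0.67, SE 0.0713, adjusted p = 2.76e-04). PSMD10 (gankyrin, a chaperone of the base) was at 90.2, 94.6 and 83.3 TPM under siCTR and 54.6, 63.9 and 54.0 TPM under siCEP20 (log2 fold change -0.63, adjusted p = 7.39e-04). PSMD5, another base chaperone, was higher (0.24, adjusted p = 0.0274). It did not pass when siCTR replicate 1 or 2, or siCEP20 replicate 2 or 3, was left out alone (adjusted p from 0.0637 to 0.0807). PSMD9, also a chaperone of the base, was at 47.1, 62.5 and 41.8 TPM under siCTR and 35.3, 52.5 and 33.3 TPM under siCEP20, with replicate 2 highest in each group, and did not pass (log2 fold change -0.32, adjusted p = 0.207), though it passed without siCEP20 replicate 2 (adjusted p = 0.0403).

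Other genes of the pathway were listed for comparison. Their counts are to be read against the 13.2% of all tested genes that were lower and the 30.2% that were higher at the same threshold. Of 13 tested further subunits, chaperones and regulators, 3 passed an adjusted p under 0.05 as lower and 1 as higher, and their median log2 fold change was 0.13. PSMG3, part of a chaperone pair for the alpha ring, was the only gene of that list called, at 106, 90.3 and 85.2 TPM under siCTR and 50.7, 56.0 and 55.7 TPM under siCEP20 (log2 fold change -0.78, adjusted p = 3.75e-04). PSMG4, the partner of PSMG3 in that pair, had a log2 fold change of 0.20 and did not pass (adjusted p = 0.103). Every siCEP20 value of PSMG4 lay above every siCTR value. PSMG1 (-0.37) and PSMG2 (-0.19), which form the other such pair, were both lower, and ECPAS (0.28), which tethers core and cap, was higher. The cap subunits ADRM1 (0.09, adjusted p = 0.273) and SEM1 (-0.09, adjusted p = 0.515) did not pass. PSMA8 and PSMB11, the testis and thymus forms, were listed at 0 in every library.

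Among 8 genes of the transcriptional control of the proteasome, NFE2L1 (NRF1), which raises proteasome genes when the protease is inhibited, was at 281, 307 and 309 TPM under siCTR and 286, 295 and 293 TPM under siCEP20 and did not pass (log2 fold change -0.04, adjusted p = 0.614). NFE2L2 (NRF2) was called higher, with 66.9, 71.1 and 77.8 TPM under siCTR and 105, 111 and 114 TPM under siCEP20 (log2 fold change 0.61, adjusted p = 4.17e-04). Of their small MAF partners, MAFK was higher (0.32) and MAFG lower (-0.34). In this list 2 genes passed an adjusted p under 0.05 as higher and 1 as lower.

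Of 14 genes for ubiquitin, its activation and delivery, 5 passed an adjusted p under 0.05 as higher and 3 as lower, where the shares over all tested genes were 30.2% and 13.2%. RAD23B (0.34), UBQLN1 (0.36) and UBQLN4 (0.33), shuttles that carry ubiquitylated proteins to the cap, were higher without a call. VCP, the segregase that extracts ubiquitylated proteins from complexes, was lower (-0.32, adjusted p = 0.00154). RPS27A, which encodes ubiquitin fused to a ribosomal protein, was called lower, with 1829, 1583 and 1454 TPM under siCTR and 793, 842 and 835 TPM under siCEP20 (log2 fold change -0.97, adjusted p = 9.34e-05), and UBB, a polyubiquitin gene, did not pass (-0.03, adjusted p = 0.711).

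Of 11 interferon-inducible or class I partners of the immunoproteasome, 3 passed an adjusted p under 0.05 as higher and 2 as lower, near the shares of 30.2% and 13.2% over all tested genes, and 0 were called. IRF1, a transcription factor of the interferon response, was higher, with 16.8, 16.5 and 15.9 TPM under siCTR and 21.1, 18.8 and 20.3 TPM under siCEP20 (log2 fold change 0.27, adjusted p = 0.0222). TAPBP, which loads peptides on MHC class I, was higher (0.50), and TAP2, a subunit of the peptide transporter, was lower (-0.31). TAP1, the neighbour of PSMB9 whose start lies 488 bases from it on the other strand, was at 39.6, 35.6 and 35.1 TPM under siCTR and 30.8, 34.8 and 32.9 TPM under siCEP20 and did not pass (log2 fold change -0.16, adjusted p = 0.139). HLA-B was lower (-0.54), while HLA-C (0.03) and B2M (0.01) had adjusted p-values of at least 0.766. HLA genes share similar sequences, so their reads can be split among them.

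Transcript length moved with the change. The canonical transcripts of the members had a median length of 1494 bases, against 2818 for all tested genes, and ran from 762 bases (PSMB3) to 7250 bases (PSME4). Across the 42 members Spearman's rho between transcript length and log2 fold change was 0.671, and across all tested genes it was 0.254. Both are descriptions over genes of the same 6 libraries, which are not independent. The core and PA28 genes are mostly short and the lid genes longer. After length and GC content were corrected for by loess in each library, 3.51% of all tested genes were called lower in place of 4.61%. Of the members, 5 remained called lower in place of 10. These were PSMA5, PSMB9, PSMB10, PSMD10 and PSME2, while PSMA2, PSMA7, PSMB6, PSMB7 and POMP kept adjusted p-values of 6.65e-04 or less but fell short of the fold change. The median of the immunoproteasome subunits was then -0.95, of the alpha ring -0.29 and of the constitutive beta ring -0.14. PSMB1, PSMB4, PSMB5 and PSMB8 no longer passed the adjusted p, and the lid still had 5 higher genes, with 0 lower. Outside the lid, the higher members PSMA4, PSMD5 and PSME4 no longer passed (adjusted p from 0.0557 to 0.278), while PSMC6 passed as higher (adjusted p = 0.0468). With median-of-ratios scaling PSMA4, PSMD5 and PSME4 did not pass either (adjusted p from 0.108 to 0.694).

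**Figure D5:**
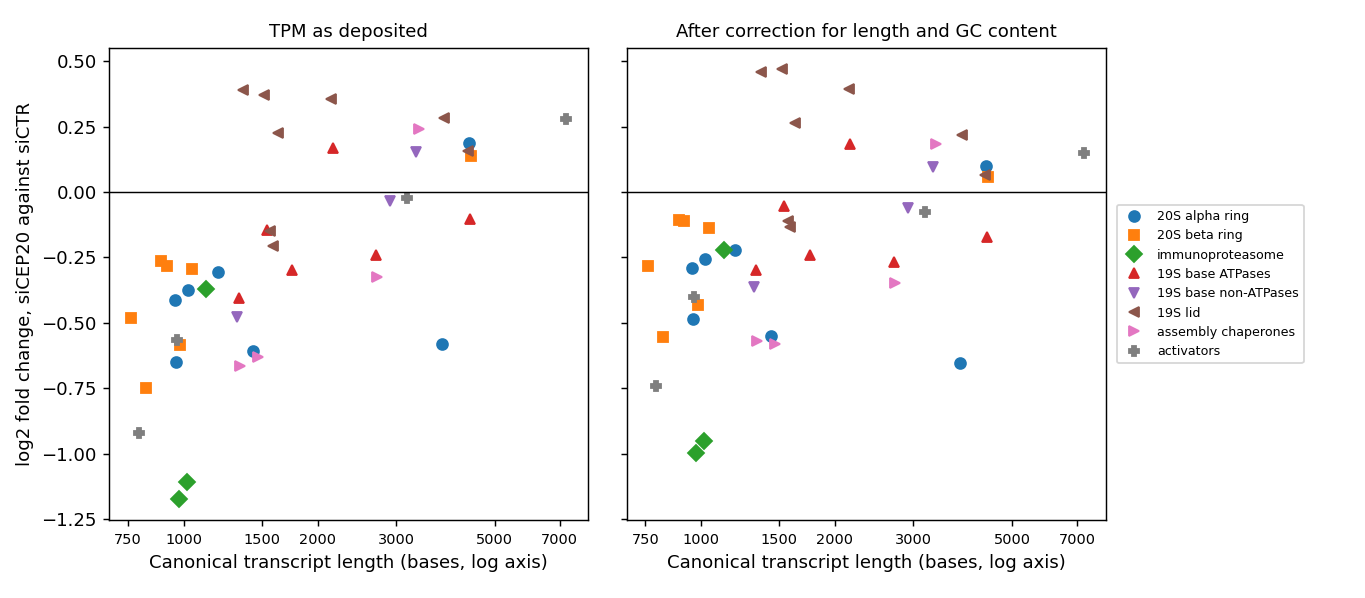
log2 fold change (y axis, siCEP20 against siCTR) of the 42 proteasome genes against the length of the canonical transcript (x axis, log scale), for the TPM as deposited (left) and after correction for length and GC content (right). Most short core transcripts move closer to 0 after the correction, PSMB9 and PSMB10 stay near -1, and the lid genes PSMD3, PSMD6 and PSMD8 stay above 0.3.

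Some members had pseudogene rows or shared exon bases with other genes. There were 43 rows of pseudogenes named after 17 of the members, with a summed TPM between 11 and 15.4 in each library, and the largest share was 5.98% of the TPM of the parent gene, for PSMC1. PSMA6 shares 833 exon bases with a gene on the same strand (ENSG00000258790), which was at 15.3, 27.5 and 24.0 TPM in siCTR and 11.9, 27.5 and 23.5 TPM in siCEP20 libraries, and PSMA1 shares 801 with another (ENSG00000256206), which was at 1.58, 0.698 and 8.35 TPM in siCTR and 2.90, 0 and 4.02 TPM in siCEP20 libraries. PSMD7 shares 326 exon bases with a gene on the opposite strand (ENSG00000259972). That gene was at 2.75, 2.07 and 3.19 TPM in siCTR and 3.11, 3.13 and 8.08 TPM in siCEP20 libraries. The sources used here do not state whether strand was used in quantification.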

How the data were processed

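Poly(A) RNA-seq libraries, 3 siCEP20 and 3 siCTR, of A549 cells, were compared. Per the methods and the labels, the authors trimmed reads with fastp 0.20.1, aligned them to hg38 with HISAT2 2.1.0 and quantified genes with StringTie 2.0, and they deposited TPM per Ensembl gene. The annotation release is not given in the sources used here. Columns were mapped to samples by name. Symbols, coordinates (hg38), canonical transcript lengths and GC content came from GENCODE release 44, and promoters from RefSeq.

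The authors tested with DESeq2, whose input was not analysed here, and reported nearly equal numbers of upregulated and downregulated genes. The main fit used here called 1659 genes higher and 682 lower. With median-of-ratios scaling 6.05% of all tested genes were called higher and 7.46% lower. The cause of this difference was not tested. From the deposited TPM, log2(TPM + 1) of genes averaging 1 TPM or more was tested (two-sided) by the moderated linear model of limma 3.58.1 (R 4.3.3) with a mean-variance trend, without rescaling or a block, with the study's thresholds. On simulated data of 14778 genes, 87.5% of 200 changed genes and 3 unchanged genes were called. The planted changes were all larger than the fold change threshold and were placed only in genes away from low TPM. Noise was normal and independent between genes, and there was no shift over all genes. The simulation therefore checks that the fit runs and says nothing about calls near the threshold. The settings varied were the pseudocount (0.1), the filter (none, or 5 TPM), median-of-ratios scaling, quantile normalization, a loess correction (span 0.5) for length and GC content, no mean-variance trend, a block by replicate number, a fold change of 2, and each library left out. Values in every library are given for called members and, in each part of the complex, for the 2 smallest adjusted p-values and the most abundant gene; further members were added where a result turned on them. Some genes of the comparison lists are counted but not reported here by name. The members and lists were chosen with earlier results of these data known. Figures were drawn with matplotlib 3.10.9.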

Additional observations from a re-analysis of the deposited data

How the results depend on the processing

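The 8 alternative fits, the 6 fits without 1 library and a stricter fold change were compared. With 1 library left out, the members called lower numbered 8 to 10, those called higher 0, those lower at an adjusted p under 0.05 21 to 24 and those higher 4 to 7. The last count was 5 without siCTR replicate 1, 5 without siCTR replicate 2, 4 without siCEP20 replicate 2 and 5 without siCEP20 replicate 3. It was 4 without a filter on low TPM, 3 with median-of-ratios scaling and 5 without the mean-variance trend. With median-of-ratios scaling 20.1% of all tested genes were higher at that threshold, against 30.2% in the main fit. The count called lower was 5 after the length and GC correction, 2 with a fold change of 2 required, and 13 with median-of-ratios scaling. No member was called higher in any of these fits. With the replicate number as a replicate block, 10 members were called lower and 7 were higher at an adjusted p under 0.05. Same-numbered libraries had correlations of their deviations of 0.157, -0.0614 and -0.0623, and not every library correlated best with its own number, so the numbers were not taken as pairs and no further call is drawn from the block.

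The members' median log2 fold change was -0.44 with median-of-ratios scaling, -0.20 after the length and GC correction and between -0.31 and -0.25 without 1 library. Their summed TPM in siCEP20 samples was 76.3% and 88.9% of that in siCTR samples with those scalings, and 83.3% to 85.8% without 1 library. The inducible over constitutive catalytic TPM differed between siCEP20 and siCTR by -1.44 percentage points, -2.16 with quantile normalization and between -1.74 and -1.07 without 1 library. The log2 fold change of PSME3 ran from -0.18 to 0.13 without 1 library and turned positive without siCTR replicate 3 (0.13), siCEP20 replicate 1 (0.06) or siCEP20 replicate 3 (0.05). Over CEP20 and the 21 members that the rule for values in every library chose, 287 values kept direction and call. A further 12 lost a call, 6 gained one and 3, all of PSME3, changed direction. These counts follow the call with its fold change, not the adjusted p alone. Changing the low-TPM filter, dropping the trend or adding the block left each fold change as in the main fit. Direction could therefore not change in those fits, and their values add no support for it. PSMB8, never called, counts as unchanged in all 14 fits. It passed the adjusted p in 2 of the 6 fits without 1 library and 5 of the 8 others. Among the other members PSMB2 changed direction, to -0.01 with median-of-ratios scaling. The cause of these shifts was not tested. TPM holds no depth, so no limit from read counts can be given.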

Other observations

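Several proteasome genes start close to a gene on the other strand, and the neighbour did not always move with the member. MRPL32, a mitochondrial ribosomal protein gene whose start lies 202 bases from that of PSMA2, was at 79.9, 80.7 and 82.0 TPM under siCTR and 86.4, 91.0 and 94.9 TPM under siCEP20, while PSMA2 was lower. SIRT3, a mitochondrial deacetylase gene 634 bases from PSMD13, was at 31.3, 32.1 and 29.8 TPM under siCTR and 36.0, 34.3 and 38.4 TPM under siCEP20, higher in every siCEP20 library, while PSMD13 was lower in every siCEP20 library. ATG4A, an autophagy protease gene 236 bases from PSMD10, was at 7.72, 7.83 and 9.66 TPM under siCTR and 9.04, 8.96 and 9.51 TPM under siCEP20, with overlapping groups. ACYP2, 120 bases from PSME4, was at 7.16, 9.01 and 9.16 TPM under siCTR and 11.8, 12.1 and 10.8 TPM under siCEP20, and both genes were higher. These pairs were picked by position after the values were seen and were not tested.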
